A study of Homo sapiens with 6 samples.

Results

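Genes whose symbol ends in AS1 make long noncoding RNAs from the strand opposite a named gene, the sense partner. Members were the rows with such a symbol that reached 1 CPM (CPM is the estimated count scaled to a common library size) in each of the 3 DMSO libraries. The rule kept 331 of the 1646 genes with an AS1 symbol, in a table of 60419 genes. GENCODE types 255 of them as antisense, 37 as processed transcripts, 29 as lincRNA, 4 as RNAs of a bidirectional promoter and 2 as protein-coding. Of the rest, 1 is typed as sense intronic, 1 as a transcribed unitary pseudogene and 2 as transcribed unprocessed pseudogenes. The cells were 12Z, an immortalised human line, wild type by the labels, from endometriosis, in which tissue like the uterine lining grows outside the uterus. The Myrrh group had 3 libraries from cells given an extract of myrrh, a tree resin, at 100 µg/mL in DMSO for 12 h, and the DMSO group had 3 libraries from cells given the DMSO solvent alone. All cells were kept in medium with 10% charcoal-stripped serum, which is low in steroid hormones, and all came from 1 line. Nothing in the labels says that the 3 libraries of a group came from separate cultures, and the spread behind each p-value may therefore be technical.

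Antisense long noncoding RNAs are made by RNA polymerase II, often from a start that faces away from the partner's promoter and shares its open chromatin. Many are kept low in the nucleus because the RNA exosome, an exonuclease complex, and its cofactors degrade them. Some act on the gene next to them, and for most no function is known. Where the 2 genes overlap, a count that ignores the strand cannot tell their reads apart, and no strand setting is stated in the sources used here.

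The libraries held 22454783 to 27588151 estimated gene counts. The keratin genes KRT8, KRT18 and KRT19 and the stromal genes VIM, CDH2, COL1A1, PDGFRB and THY1 were all expressed, PDGFRB being the lowest at 31.95 CPM in Myrrh and 62.6 CPM in DMSO. Of the other epithelial markers, the cadherin gene CDH1 had 13 counts in the Myrrh group and 14 in the DMSO group, and EPCAM averaged 2.28 CPM in Myrrh and 1.04 CPM in DMSO. By edgeR's test EPCAM (1.13 ± 0.23, log2 fold change, Myrrh over DMSO, and SE) and CDH2 (0.25 ± 0.059) rose, while KRT8 (-0.54 ± 0.057), KRT18 (-0.31 ± 0.056), KRT19 (-0.64 ± 0.057), VIM (-0.44 ± 0.055), COL1A1 (-2.91 ± 0.057), PDGFRB (-0.97 ± 0.062) and THY1 (-1.27 ± 0.059) fell. The highest of the leukocyte and endothelial markers PTPRC, CD14, CD3E, PECAM1, CDH5 and VWF was CD14, at 0.445 CPM in Myrrh and 2.18 CPM in DMSO, and CD3E and CDH5 had no counts. The part of these marker changes in the results on antisense genes was not tested.

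Most of the antisense genes were lower in the Myrrh libraries. Of the 331 members, all of which passed the filter on low counts, 228 (68.9%) were called lower and 40 (12.1%) higher, and 63 were not called, by edgeR's quasi-likelihood test at an adjusted p of 0.05 over all genes tested. Over all 16395 genes tested, 39.1% were called lower and 39.3% higher. The median log2 fold change of the members was -0.85, with quartiles of -1.51 and -0.22, against -0.017 over all genes tested. A call together with a change of at least 2-fold was reached by 143 members that fell and 12 that rose, where 18% and 11.3% of all genes did so. Every Myrrh library was under every DMSO library in 231 members and over every DMSO library in 44, where 40.2% and 40.1% of all genes were. All log2 fold changes are Myrrh over DMSO.

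The rule used the DMSO level, so a gene seen in Myrrh alone could not be a member, which can tilt the members toward lower values in Myrrh. The same floor applied to every gene left 14224 genes, of which 40.1% were called lower and 41.6% higher, and among the protein-coding genes over that floor 36.5% were lower and 46% higher. With a mean of 1 CPM over all 6 libraries in place of the DMSO floor, a rule that treats the groups alike, 323 antisense genes were kept, of which 207 fell and 47 rose. Among all 480 tested genes with an AS1 symbol, 273 fell and 78 rose, and among the 149 of them under the DMSO floor 45 fell and 38 rose. By their lowest DMSO library, SSBP3-AS1, PTOV1-AS1 and ZBTB11-AS1 lay just inside the floor, each at 1.01 CPM, and C4B-AS1, C4A-AS1 and STPG3-AS1 just outside it, at 0.993, 0.993 and 0.992 CPM. C4A-AS1 and C4B-AS1 belong to near-identical gene copies, so their values are uncertain.

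In CPM scaled with TMM library factors, as in all that follows, the median member stood at 2.35, 2.29 and 2.16 CPM in the Myrrh libraries, against 3.62, 3.71 and 3.57 CPM in the DMSO libraries. The levels of all members added up to 1971, 1991 and 1876 CPM in Myrrh, against 3269, 3319 and 3172 CPM in DMSO, so the groups did not overlap. Between 73 and 82 members were under 1 CPM in the Myrrh libraries, against 2 to 3 in the DMSO libraries, which the rule, set on unscaled CPM, allows only through the TMM scaling. The rule itself keeps the DMSO number low, so this contrast is no support for a fall. The summed level of the sense partners was 25217 to 25792 CPM in Myrrh and 27664 to 27905 CPM in DMSO. In bulk RNA, fewer cells with a transcript and less of it per cell cannot be told apart. The plot of percent against log2 fold change sets the members beside their partners and protein-coding genes.

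**Figure D1:**
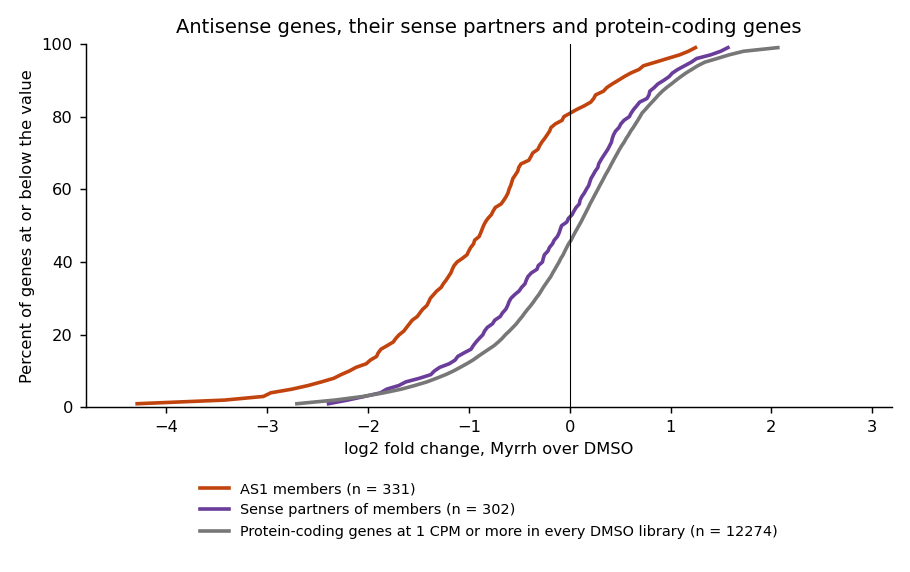
Percent of genes (vertical axis) at or below each log2 fold change, Myrrh over DMSO (horizontal axis), for the 331 antisense members, their 302 tested sense partners and the 12274 protein-coding genes over the same DMSO floor. The members' curve lies to the left of both others, with medians of -0.85, -0.08 and 0.091.

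The members were low-level RNAs, and a negative median was found in each range of DMSO level. In DMSO the median member had 3.45 TPM (a level scaled for transcript length and library size), with quartiles of 1.74 and 7.86. Of members with a DMSO mean under 2 CPM, 45 of 79 fell and 13 rose, and of those from 2 to 5 CPM 88 of 126 fell and 15 rose. From 5 to 10 CPM, 44 of 61 fell and 5 rose, and over 10 CPM 51 of 65 fell and 7 rose. The 4 medians lay between -0.77 and -0.87. Protein-coding genes over the same floor and in the same 4 ranges had medians of -0.33, -0.17, 0.15 and 0.11, from low to high.

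Other noncoding RNA classes with the same DMSO floor were also mostly lower. Of antisense genes numbered AS2 and up, 14 of 20 fell and 3 rose (median -0.91). Of the genes named DT, divergent transcripts that start at a neighbour's promoter and point away from it, 91 of 138 fell and 16 rose (median -0.80). Of the LINC genes, which lie between protein-coding genes, 88 of 126 fell and 11 rose (median -0.93). Of the genes named IT, which lie within an intron, 3 of 5 fell and 1 rose (median -0.68). No difference between these classes was tested, and the plot of calls by gene class sets them beside protein-coding genes.

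**Figure D2:**
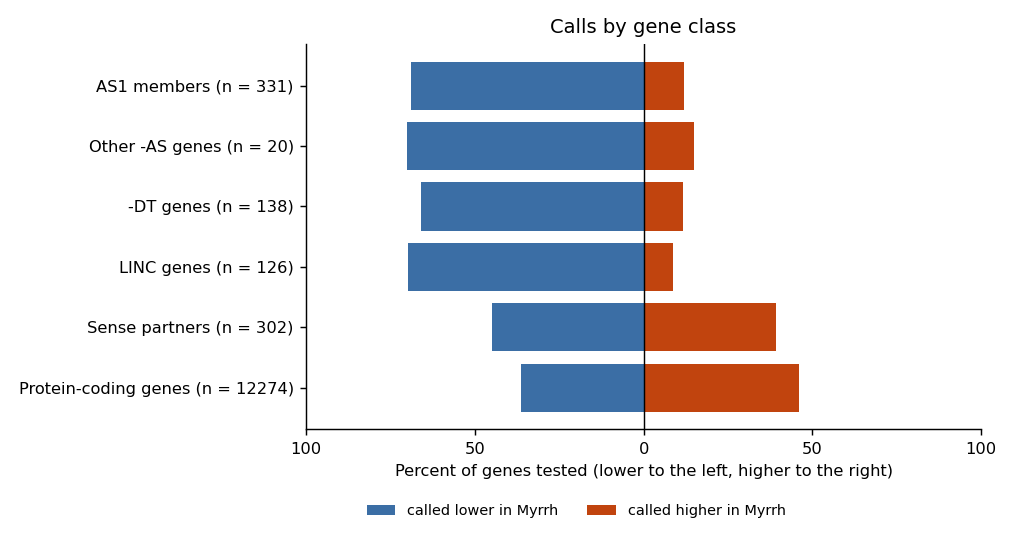
Percent of tested genes called lower (left) or higher (right) in Myrrh by edgeR, for the AS1 members, 3 other noncoding classes, the members' sense partners and protein-coding genes. All but the sense partners had to reach 1 CPM in every DMSO library. The 4 noncoding classes have 65.9% to 70% lower, and protein-coding genes 36.5%.

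The largest decreases were to a few counts. UBE2R2-AS1, opposite the gene of a ubiquitin-conjugating enzyme, had 0.0419, 0.0896 and 0.0939 CPM in the Myrrh libraries, against 1.52, 2.12 and 2.09 CPM in the DMSO libraries, and only 5 counts over the 3 Myrrh libraries (log2 fold change -4.60 ± 0.42, SE; adjusted p = 1.29e-10). H1-10-AS1, opposite a linker histone gene, had 0.126, 0.0896 and 0.188 CPM in the Myrrh libraries, against 2.86, 3.37 and 2.49 CPM in the DMSO libraries (-4.39 ± 0.33, SE; adjusted p = 3.96e-12). SEPTIN4-AS1, opposite the gene of a septin, a filament-forming GTPase, had 0.0419, 0.134 and 0.188 CPM in the Myrrh libraries, against 2.61, 2.43 and 2.63 CPM in the DMSO libraries (-4.37 ± 0.36, SE; adjusted p = 1.75e-11). In all 3 genes every Myrrh library was under every DMSO library, and the Myrrh groups held 9 counts of H1-10-AS1 and 8 of SEPTIN4-AS1, so the size of these folds is known only roughly. GAS6-AS1, opposite the gene of a ligand of receptor tyrosine kinases that binds dying cells, had 0.545, 0.179 and 0.423 CPM in the Myrrh libraries, against 7.62, 8.81 and 7.72 CPM in the DMSO libraries (-4.37 ± 0.22, SE; adjusted p = 8.96e-16). PKD1L1-AS1, within the gene of a polycystin-like channel protein, had 0.126, 0.358 and 0.329 CPM in the Myrrh libraries, against 4.46, 4.82 and 4.69 CPM in the DMSO libraries (-4.10 ± 0.27, SE; adjusted p = 1.55e-13). BRPF3-AS1 and LMNTD2-AS1 followed at -3.43 ± 0.25 and -3.42 ± 0.19, with Myrrh libraries under every DMSO library in both.

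Decreases of similar size at higher levels rest on more counts. DBH-AS1, opposite the gene of dopamine beta-hydroxylase, had 3.44, 2.42 and 1.97 CPM in the Myrrh libraries, against 29, 28.6 and 27.2 CPM in the DMSO libraries (-3.42 ± 0.12, SE; adjusted p = 3.02e-18). SLC9A3-AS1, opposite the gene of a sodium-proton exchanger, had 18.03, 16.2 and 15.7 CPM in the Myrrh libraries, against 136, 146 and 124 CPM in the DMSO libraries (-3.02 ± 0.07, SE; adjusted p = 1.18e-21). It was among the 5 members with the most TPM in DMSO, and fell about 8.1-fold. In GRCh38, SLC9A3-AS1 lies on chromosome 5 at 473236 to 480884, DBH-AS1 on chromosome 9 at 133654590 to 133657310 and UBE2R2-AS1 on chromosome 9 at 33785950 to 33818795, each within or overlapping its partner's gene on the other strand.

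The increases were fewer and smaller. GOLGA4-AS1, which starts 753 bases from GOLGA4, the gene of a golgin of the trans-Golgi network, had 5.58, 6.45 and 5.54 CPM in the Myrrh libraries, against 1.14, 1.04 and 1.05 CPM in the DMSO libraries (2.44 ± 0.18, SE; adjusted p = 1.47e-12). NEPRO-AS1, opposite the gene of a nucleolar protein, had 5.32, 5.74 and 4.37 CPM in the Myrrh libraries, against 1.14, 1.56 and 1.59 CPM in the DMSO libraries (1.84 ± 0.18, SE; adjusted p = 9.7e-10). In both, every Myrrh library was over every DMSO library. MSC-AS1, opposite the gene of musculin, a helix-loop-helix transcription factor, had 58.02, 59.4 and 55.8 CPM in the Myrrh libraries, against 22.7, 25.1 and 24.7 CPM in the DMSO libraries (1.25 ± 0.062, SE; adjusted p = 4.69e-16), the highest level among the 8 largest increases. KTN1-AS1, next to the gene of kinectin, an ER membrane protein, had 8.13, 6.72 and 7.33 CPM in the Myrrh libraries, against 3.07, 3.05 and 3.35 CPM in the DMSO libraries (1.23 ± 0.14, SE; adjusted p = 6.82e-09). EPB41L4A-AS1, whose gene spans the small nucleolar RNA gene SNORA13, had 25.9, 28.4 and 28.7 CPM in the Myrrh libraries, against 10.99, 12.9 and 13.1 CPM in the DMSO libraries (1.16 ± 0.08, SE; adjusted p = 6e-13). NUP153-AS1 (1.23 ± 0.17), ZBTB11-AS1 (1.27 ± 0.22) and NAV2-AS1 (1.21 ± 0.21) complete these 8. All exon bases of NAV2-AS1 lie under exons of NAV2, which rose too (0.88 ± 0.051). A count that ignores the strand could not tell the reads of NAV2-AS1 and NAV2 apart. Of the exon bases of NUP153-AS1, over 50% lie under exons of NUP153. Of those of GOLGA4-AS1, over 10% and up to 50% lie under exons of GOLGA4, which rose too (log2 fold change 1.17).

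**Figure D3:**
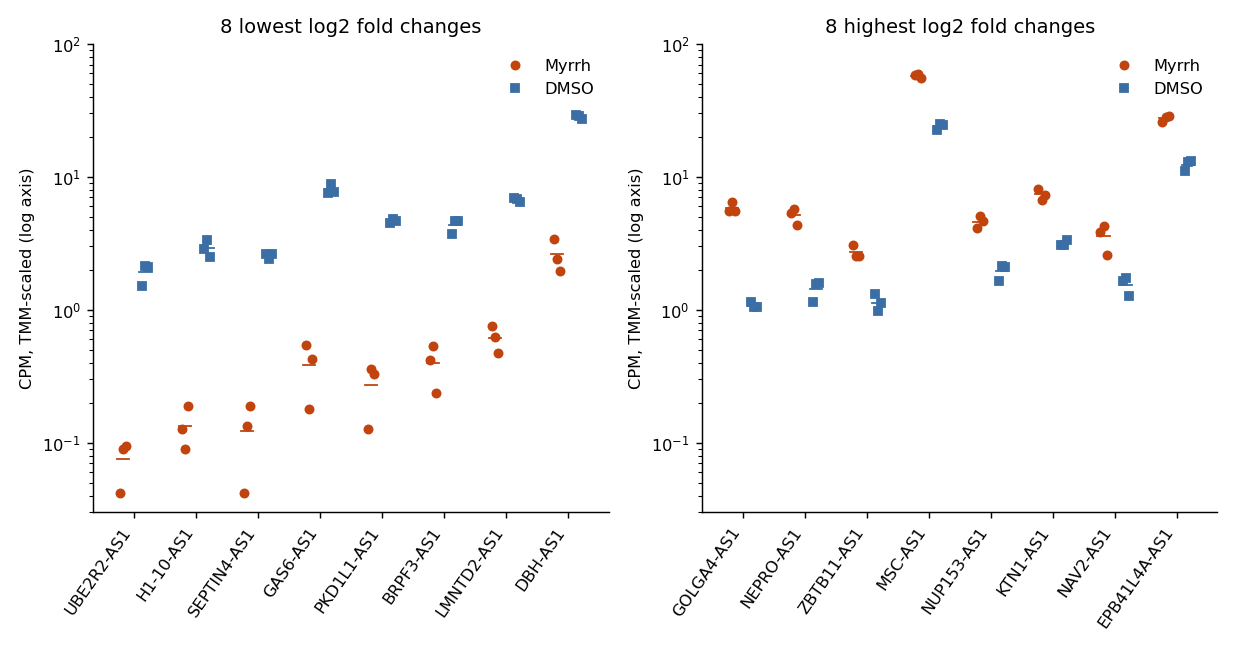
Level of the 8 members with the lowest (left panel) and the 8 with the highest (right panel) log2 fold change among called members without overlap, in TMM-scaled CPM on a log axis. Circles are Myrrh libraries, squares DMSO libraries, and bars the means of 3. In each of the 16 genes the groups are separate, and the lowest Myrrh mean is 0.0752 CPM, of UBE2R2-AS1.

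Of the other 4 members with the most TPM in DMSO, THBS2-AS1 had the lowest log2 fold change. TUBA1B-AS1, opposite the gene of an alpha-tubulin, had 388 ± 64.8 TPM in Myrrh and 565 ± 86.3 TPM in DMSO, the highest DMSO level of any member. It was not called (-0.67 ± 0.25, SE; adjusted p = 0.0669), though its groups did not overlap, and 4 alternatives called it lower, DESeq2 among them. Exons of TUBA1B cover 80.2% of its exon bases, and TUBA1B itself fell (-0.86 ± 0.055). RCC2-AS1, which lies wholly under exons of RCC2, had 4.95, 8.83 and 5.21 CPM in the Myrrh libraries, against 10.1, 10.2 and 8.76 CPM in the DMSO libraries and groups that overlapped (-0.62 ± 0.21, SE; adjusted p = 0.0239). Its call was lost without Myrrh replicate 3 (log2 fold change -0.49), DMSO replicate 1 (-0.59) or DMSO replicate 2 (-0.58). PAX8-AS1, opposite the gene of a transcription factor of the female reproductive tract, thyroid and kidney, had 144, 141 and 132 CPM in the Myrrh libraries, against 199, 198 and 184 CPM in the DMSO libraries (-0.48 ± 0.054, SE; adjusted p = 1.1e-08), but its value with limma on log2(TPM + 1) was -0.033 and not called. PAX8 had 3.36 ± 0.459 TPM in Myrrh and 2.92 ± 0.361 TPM in DMSO, and its call as higher (0.30 ± 0.12) was lost without any 1 of Myrrh replicate 3 and the 3 DMSO libraries, where its log2 fold change was 0.18, 0.29, 0.31 and 0.31. THBS2-AS1, which overlaps the end of the gene of the matrix protein thrombospondin, had 37.4, 55.7 and 28.2 CPM in the Myrrh libraries, against 125, 126 and 151 CPM in the DMSO libraries (-1.73 ± 0.28, SE; adjusted p = 0.00426), and the groups did not overlap.

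OIP5-AS1, a conserved cytoplasmic long noncoding RNA also called Cyrano, is an example of a member that was not called. It had 127, 122 and 118 CPM in the Myrrh libraries, against 119.7, 118 and 120.0 CPM in the DMSO libraries, and the groups overlapped (0.036 ± 0.049, SE; adjusted p = 0.51). Its partner OIP5, a centromere protein gene, fell (-0.83 ± 0.10). FGD5-AS1 had 67.03, 62.2 and 60.8 CPM in the Myrrh libraries, against 110.4, 108 and 119.8 CPM in the DMSO libraries (-0.83 ± 0.055, SE; adjusted p = 2.34e-13), while its partner averaged 0.0448 CPM in Myrrh and 0.0356 CPM in DMSO and was not tested. TMPO-AS1, next to the gene of a nuclear lamina protein, had 2.52, 2.11 and 1.64 CPM in the Myrrh libraries, against 14.2, 14.4 and 13.9 CPM in the DMSO libraries (-2.75 ± 0.13, SE; adjusted p = 1.57e-16). MCM3AP-AS1 had 7.13, 7.04 and 6.58 CPM in the Myrrh libraries, against 10.7, 10.9 and 9.09 CPM in the DMSO libraries (-0.56 ± 0.11, SE; adjusted p = 3.18e-05), and MCM3AP, which serves mRNA export, was called higher (0.15 ± 0.052). The MCM3AP call was lost without Myrrh replicate 1, DMSO replicate 2 or DMSO replicate 3, where its log2 fold change was 0.12, 0.13 and 0.13. With limma on log2(TPM + 1), MCM3AP-AS1 was at -0.18 and not called.

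Grouped by what the partner does, more members fell than rose in each of 6 groups. These groups were drawn up by partner symbol after values had been seen, and their counts stand beside 68.9% lower among all members and 39.1% among all genes tested. In 3 of the 6, those of transcription factors, of lipid genes and of zinc finger genes, the share of members that fell was below that of all members. Opposite genes of DNA repair, replication and mitosis, 17 of 20 fell and 1 rose, and of the partners 10 fell and 8 rose of 20 tested. The list includes CDC42-AS1 (-1.61 ± 0.25) and CCNT2-AS1 (-1.01 ± 0.29), both lower, whose partners, a small GTPase gene and a cyclin gene of transcription elongation, have other roles. It also holds TMPO-AS1 and MCM3AP-AS1, both lower, whose partners are described above as genes of the nuclear lamina and of mRNA export. CDKN2B-AS1, also known as ANRIL and which spans the gene of a CDK inhibitor, had 2.64, 2.69 and 2.44 CPM in the Myrrh libraries, against 10.8, 9.4 and 7.25 CPM in the DMSO libraries (-1.81 ± 0.15, SE; adjusted p = 3.52e-11). Opposite genes of matrix and adhesion, 14 of 18 fell and 2 rose, and of the partners 8 fell and 2 rose of 13 tested. PCOLCE-AS1, next to the gene of an enhancer of procollagen processing, was at -2.37 ± 0.24 and its partner at -1.34 ± 0.065, and THY1-AS1, opposite a stromal surface marker, at -1.12 ± 0.096 with its partner at -1.27 ± 0.059. All exon bases of THY1-AS1 lie under exons of THY1.

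Opposite transcription factors of tissue identity, 10 of 20 fell and 5 rose, and of the partners 10 fell and 7 rose of 19 tested. GATA6-AS1, next to a factor expressed in endometriotic stroma, had 1.8, 1.21 and 0.798 CPM in the Myrrh libraries, against 9.68, 10.4 and 10.3 CPM in the DMSO libraries (-2.97 ± 0.17, SE; adjusted p = 7.71e-14), and GATA6 fell less (-0.54 ± 0.059). HAND2-AS1, next to a progesterone-responsive factor of endometrial stroma, had 7.21, 6.41 and 6.2 CPM in the Myrrh libraries, against 16.8, 17.7 and 16.9 CPM in the DMSO libraries (-1.37 ± 0.093, SE; adjusted p = 3.73e-13). HAND2 was at 6.71 ± 0.657 CPM in Myrrh and 14.8 ± 0.518 CPM in DMSO and fell. FOXD1-AS1 (0.72 ± 0.18) and ZFPM2-AS1 (0.72 ± 0.12) rose, the exons of FOXD1-AS1 lying wholly under those of FOXD1, and NR2F2-AS1 was not called (-0.075 ± 0.18). Opposite lipid, sterol and prostaglandin genes, 7 of 12 fell and 1 rose, and of the partners 3 fell and 8 rose of 11 tested. Opposite genes of the proteasome, chaperones and other protein handling, 7 of 7 fell and 0 rose, and of the partners 4 fell and 3 rose of 7 tested. PSMA3-AS1, opposite a subunit of the proteasome core, was at -1.92 ± 0.07 and PSMA3 at 0.46 ± 0.073. Opposite zinc finger genes, 8 of 15 fell and 3 rose, and of the partners 2 fell and 8 rose of 15 tested.

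Of the 331 members, 330 had a sense partner in the table and 302 of those partners passed the filter on low counts. The exception was HOXB-AS1, named after a gene cluster. Of the tested partners, 136 (45.03%) fell and 119 (39.4%) rose (median log2 fold change -0.08), where 39.1% and 39.3% of all genes tested did so. Per length, the antisense RNA was usually the lower of the pair: its TPM was above the partner's in 62 of 302 pairs in DMSO. The median ratio of antisense to partner TPM was 0.111 in Myrrh and 0.184 in DMSO.

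Both genes were called in the same direction in 130 pairs, 108 with both lower and 22 with both higher. They were called in opposite directions in 81 pairs, and in 72 of these the antisense gene fell while the partner rose. In 32 further pairs the antisense gene fell and the partner was not called. These counts stand beside the separate shares: 68.9% of all members fell, and of the tested partners 45.03% fell and 39.4% rose. Whether the pair counts differ from those that unrelated calls would give was not tested. The antisense value was below the partner's in 228 of 302 pairs, with a median difference of -0.70 on the log2 scale. Across pairs the 2 log2 fold changes correlated at r = 0.27 (Spearman 0.26, 302 pairs). This is a description across genes, which share the same 6 libraries and, in many pairs, may share reads.

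**Figure D4:**
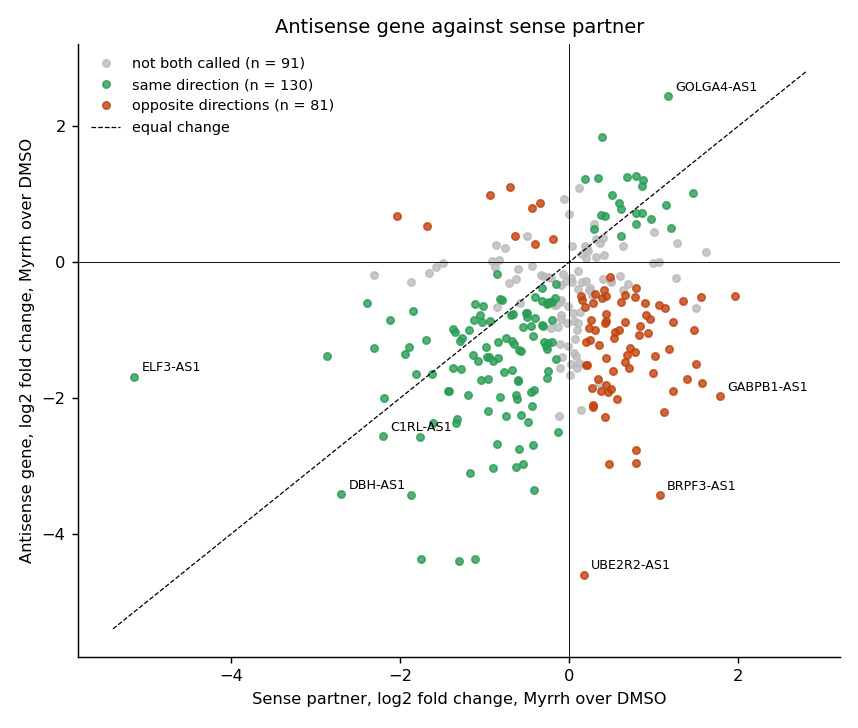
Log2 fold change of the antisense gene (vertical) against that of its sense partner (horizontal), Myrrh over DMSO, 1 point for each of 302 pairs, coloured by whether both genes were called by edgeR and in which direction. The 81 pairs called in opposite directions lie mostly at the lower right, where the antisense gene fell and the partner rose.

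Of the pairs called in opposite directions, 5 of those furthest apart are given here, and all 5 had a lower antisense gene and a higher partner. GABPB1-AS1, next to the gene of the beta subunit of the transcription factor GABP, had 37.02, 27.2 and 26.2 CPM in the Myrrh libraries, against 128, 119 and 110.2 CPM in the DMSO libraries (-1.98 ± 0.14, SE; adjusted p = 4.15e-05). GABPB1 had 92.1, 101 and 91.5 CPM in the Myrrh libraries, against 26.3, 27.8 and 28.01 CPM in the DMSO libraries (1.79 ± 0.059, SE). Per length, the antisense RNA was the less abundant of the pair in Myrrh, at 13.3 TPM beside 76.9 TPM, and the more abundant in DMSO, at 47.1 TPM beside 17.4 TPM. The difference of the 2 log2 fold changes was -3.76 ± 0.16, and the antisense to partner ratio was lower in all 3 Myrrh libraries than in any DMSO library (two-sided exact permutation test, p = 0.1, the smallest that 3 against 3 allows). Neither gene's groups overlapped and the 2 genes moved in opposite directions, so that outcome was fixed beforehand and adds no support. GABPB1-AS1 lies on chromosome 15 at 50354959 to 50372202 in GRCh38. The 2 genes start 59 bases apart in GENCODE, and 2.47% of the antisense exon bases lie under exons of GABPB1.

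STARD4-AS1 had 1.05, 1.34 and 1.5 CPM in the Myrrh libraries, against 10.3, 10.1 and 9.66 CPM in the DMSO libraries (-2.95 ± 0.15, SE; adjusted p = 9.43e-16), and STARD4, a sterol transport protein, had 53.9, 54.1 and 50.9 CPM in the Myrrh libraries, against 31.6, 29.4 and 30.7 CPM in the DMSO libraries (0.79 ± 0.06). PTGES2-AS1 had 0.21, 0.358 and 0.047 CPM in the Myrrh libraries, against 1.64, 1.7 and 0.973 CPM in the DMSO libraries (-2.76 ± 0.42, SE; adjusted p = 1.65e-06), and PTGES2, a prostaglandin E synthase, had 70.4, 70.04 and 73.7 CPM in the Myrrh libraries, against 41.5, 44.1 and 38.4 CPM in the DMSO libraries (0.79 ± 0.059). In STARD4-AS1 and PTGES2-AS1 alike, all Myrrh libraries were the lower ones, and in their partners the higher ones. BRPF3-AS1 had 0.419, 0.538 and 0.235 CPM in the Myrrh libraries, against 3.7, 4.68 and 4.69 CPM in the DMSO libraries, and BRPF3, a scaffold of a histone acetyltransferase, had 77.6, 67.8 and 76.5 CPM in the Myrrh libraries, against 35.3, 36.8 and 33.3 CPM in the DMSO libraries (1.07 ± 0.062). UBE2R2 was called higher by a small amount (0.17 ± 0.047), and its pair differed by -4.77 ± 0.42. The UBE2R2 call was lost with library totals in place of TMM (log2 fold change 0.028) and with the 5 CPM filter (0.072). In each of the 5 pairs the groups did not overlap for either gene.

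**Figure D5:**
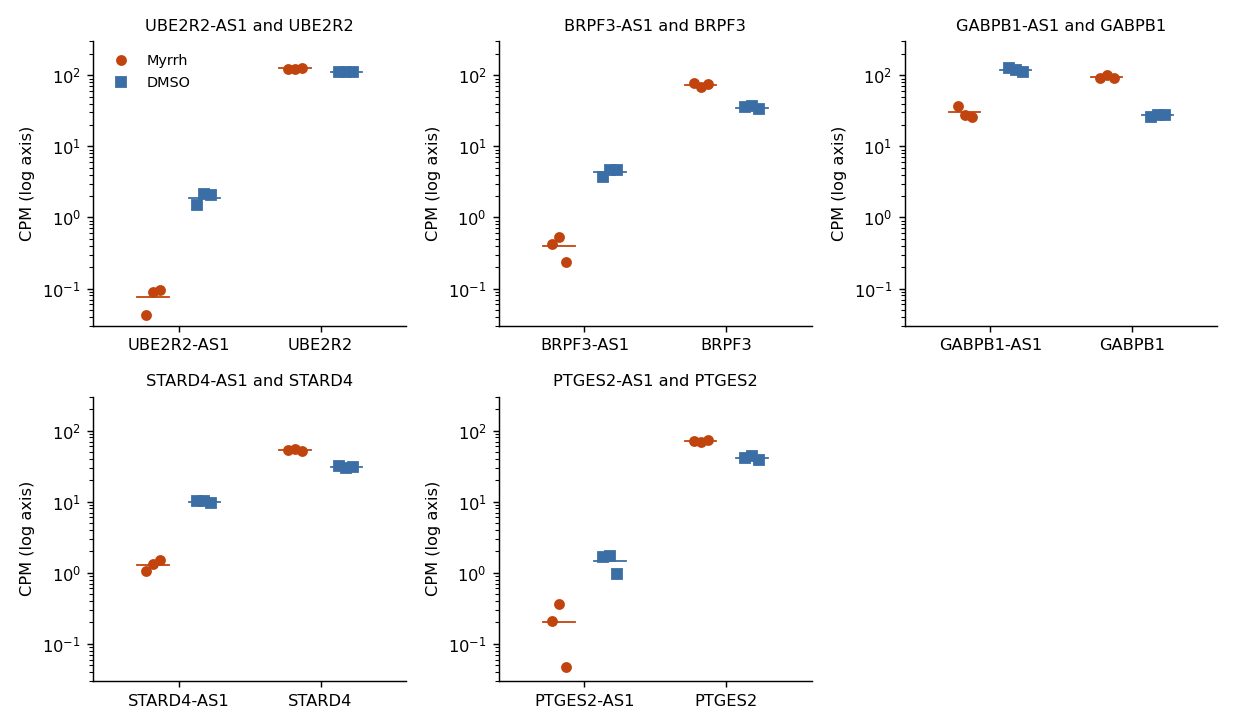
Level of the antisense gene (left in each panel) and its sense partner (right) in 5 of the pairs furthest apart among those called in opposite directions, in TMM-scaled CPM on a log axis, with circles for Myrrh, squares for DMSO and bars for means of 3 libraries. In every panel the Myrrh points are below the DMSO points for the antisense gene and above them for the partner. CPM does not account for length, so levels are compared within a gene only.

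Among pairs called in the same direction, 5 of those with the largest shared change are given here, and all 5 had both genes lower. DBH-AS1 fell by 3.42 and DBH by 2.70 on the log2 scale. C1RL-AS1 had 2.47, 1.12 and 1.83 CPM in the Myrrh libraries, against 10.3, 12.04 and 9.99 CPM in the DMSO libraries (-2.56 ± 0.18, SE; adjusted p = 2.87e-10), and C1RL, a complement-like protease, had 17.4, 14.9 and 15.9 CPM in the Myrrh libraries, against 74.8, 72.2 and 74.8 CPM in the DMSO libraries (-2.20 ± 0.065). ID2-AS1 had 0.629, 0.583 and 0.423 CPM in the Myrrh libraries, against 3.83, 3.02 and 3.03 CPM in the DMSO libraries (-2.57 ± 0.25, SE; adjusted p = 3.93e-10), and ID2, an inhibitor of helix-loop-helix factors, had 8.05, 12.2 and 8.22 CPM in the Myrrh libraries, against 32.96, 32.4 and 31.6 CPM in the DMSO libraries (-1.77 ± 0.12). LMNTD2-AS1 (-3.42 ± 0.19) and LMNTD2 (-1.87 ± 0.23) and SEPTIN4-AS1 (-4.37 ± 0.36) and SEPTIN4 (-1.76 ± 0.11) make up the rest. ELF3, a factor of epithelial cells, had the lowest value of any tested partner (-5.15 ± 0.28), and ELF3-AS1 was at -1.69 ± 0.17; this pair was named after its values were seen.

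The position of the 2 genes was taken from GENCODE 29 on GRCh38, which held all 331 members. In 202 pairs the nearest annotated starts lay within 1000 bases of each other on opposite strands, called head to head here, at a median distance of 115 bases. In 64 pairs the genes met or overlapped at their ends (tail to tail), in 49 one lay within the other, in 10 they overlapped otherwise and in 5 they were apart. Of head-to-head members, 144 of 202 fell and 23 rose (median -0.87), while of their tested partners 82 fell and 82 rose of 195 (median -0.024). Of tail-to-tail members, 40 of 64 fell and 9 rose (median -0.60), and 30 of their 61 tested partners fell and 23 rose (median -0.16). Of members within or around the partner, 34 of 49 fell and 7 rose (median -1.12), and 19 of their 33 tested partners fell and 9 rose (median -0.22). Of those overlapping otherwise, 6 of 10 fell and 0 rose (median -1.02), and 4 of their 8 tested partners fell and 3 rose (median -0.39). Of those apart, 3 of 5 fell and 1 rose (median -0.49), and 1 of their 5 tested partners fell and 2 rose (median 0.29). A single annotated exon was present in 33 members, of which 19 fell and 6 rose.

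Shared exons moved with how alike the pairs were. Over the 54 pairs without shared exon bases, 15 pairs were called in the same direction and 18 in opposite directions, with r = 0.036. With up to 10% of the antisense exon bases under partner exons, 46 pairs were called in the same direction and 37 in opposite directions, with r = 0.25 (107 pairs). With over 10% to 50%, 56 pairs were called in the same direction and 25 in opposite directions, with r = 0.36 (116 pairs), and with over 50%, 13 pairs were called in the same direction and 1 in opposite directions, with r = 0.50 (25 pairs). Of the tested partners without shared bases, 31.5% fell and 44.4% rose, and with up to 10% shared 42.1% fell and 46.7% rose. With over 10% to 50% shared, 50.9% fell and 32.8% rose, and with over 50%, 60% fell and 28% rose. Such shares alone can change the pair counts, and whether the counts differ from those of unrelated calls was not tested. The part of shared reads was not tested either. The members without exon bases shared with their partner were lower as well: 41 of 63 fell and 8 rose (median -0.94). Of members with over 50% shared, 12 of 25 fell and 4 rose (median -0.62), and the antisense value was below the partner's in 12 of 25 pairs, with a median difference of 0.021. Without shared bases it was below in 43 of 54 pairs, with a median difference of -0.81. Of the 48 members with no exon base under an exon of any gene on the other strand, 29 fell and 5 rose (median -0.68).

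RefSeq windows on GRCh38.p14, 250 bases before to 50 after the start, were found by symbol for 239 members. The window of ID2-AS1 at chr2:8681814-8682113 (minus strand) shares 292 of its 300 bases with that of ID2, and the window of KTN1-AS1 at chr14:55580043-55580342 (minus strand) shares 214 bases with that of KTN1. They are shown as pairs whose 2 genes moved the same way, ID2-AS1 and ID2 lower and KTN1-AS1 and KTN1 higher, though the KTN1 call (0.19 ± 0.054) was lost with library totals (0.046) and the 5 CPM filter (0.09). The RefSeq start of ID2 falls at base 58 of the ID2-AS1 window, on the other strand. The windows of GABPB1-AS1 at chr15:50353924-50354223 (plus strand), BRPF3-AS1 at chr6:36197154-36197453 (minus strand) and STARD4-AS1 at chr5:111511976-111512275 (plus strand) are shown as members that fell while the partner rose; their RefSeq starts lie 1024, 459 and 309 bases from the partner's, further than the nearest GENCODE starts. Each is written 5′ to 3′ on the antisense gene's strand, with capitals for any of the 6 motifs searched.
ID2-AS1: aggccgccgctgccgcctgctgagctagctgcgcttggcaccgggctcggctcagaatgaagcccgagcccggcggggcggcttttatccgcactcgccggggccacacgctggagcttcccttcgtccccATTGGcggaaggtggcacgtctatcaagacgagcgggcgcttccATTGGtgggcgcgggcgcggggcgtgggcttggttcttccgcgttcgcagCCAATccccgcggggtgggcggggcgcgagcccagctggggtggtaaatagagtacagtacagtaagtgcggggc
KTN1-AS1: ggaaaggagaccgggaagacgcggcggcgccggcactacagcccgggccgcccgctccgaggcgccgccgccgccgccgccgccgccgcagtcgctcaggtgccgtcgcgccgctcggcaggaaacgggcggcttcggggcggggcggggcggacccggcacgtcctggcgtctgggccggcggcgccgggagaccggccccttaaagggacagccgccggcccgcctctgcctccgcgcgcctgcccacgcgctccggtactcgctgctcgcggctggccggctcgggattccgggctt
GABPB1-AS1: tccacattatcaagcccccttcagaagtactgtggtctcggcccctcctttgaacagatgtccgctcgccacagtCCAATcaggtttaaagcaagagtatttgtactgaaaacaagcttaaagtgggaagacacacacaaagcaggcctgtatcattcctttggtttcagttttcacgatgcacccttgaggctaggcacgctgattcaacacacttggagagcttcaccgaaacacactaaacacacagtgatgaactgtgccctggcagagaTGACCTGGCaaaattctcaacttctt
BRPF3-AS1: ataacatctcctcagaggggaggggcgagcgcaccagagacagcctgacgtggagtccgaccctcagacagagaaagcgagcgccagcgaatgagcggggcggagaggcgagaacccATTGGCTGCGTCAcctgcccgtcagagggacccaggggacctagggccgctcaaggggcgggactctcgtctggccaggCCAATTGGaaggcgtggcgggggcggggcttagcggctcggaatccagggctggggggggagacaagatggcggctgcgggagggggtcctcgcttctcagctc
STARD4-AS1: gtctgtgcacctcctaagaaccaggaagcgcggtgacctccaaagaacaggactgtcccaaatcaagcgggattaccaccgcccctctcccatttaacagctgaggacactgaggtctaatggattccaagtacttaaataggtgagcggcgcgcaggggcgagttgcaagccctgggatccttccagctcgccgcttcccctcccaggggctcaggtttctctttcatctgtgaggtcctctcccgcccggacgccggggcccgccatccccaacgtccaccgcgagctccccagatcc

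The ID2-AS1 window holds the CCAAT box 3 times, and the BRPF3-AS1 window holds it 3 times beside 1 antioxidant response element. The GABPB1-AS1 window, which ends before the GENCODE start of that gene given above, holds 1 CCAAT box and 1 antioxidant response element. The KTN1-AS1 and STARD4-AS1 windows hold none of the 6, which says only that these letters are not in these windows. The motifs were searched on both strands. The CCAAT box (CCAAT) was in 33.1% of members that fell, 27.3% of those that rose, 28.6% of those not called and 35.7% of all promoters. The antioxidant response element (TGACNNNGC) was in 20.4% of members that fell, 9.09% of those that rose, 22.4% of those not called and 13.6% of all promoters. The heat shock element core (GAANNTTC) was in 5.73% of members that fell, 3.03% of those that rose, 8.16% of those not called and 6.87% of all promoters. The C/EBP-ATF site (TGATGNAA) was in 0.637% of members that fell, 0% of those that rose, 2.04% of those not called and 3.67% of all promoters. The cAMP response element (TGACGTCA) was in 4.46% of members that fell, 3.03% of those that rose, 6.12% of those not called and 1.98% of all promoters. The E-box (CACGTG) was in 7.64% of members that fell, 15.2% of those that rose, 8.16% of those not called and 7.43% of all promoters. These shares rest on 157 members that fell, 33 that rose and 49 not called. For every motif but the CCAAT box, the share was higher in members not called than in those that fell. A match is a run of letters, not a bound site. The median member window held 25 CpG dinucleotides, against 14 over all promoters.

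Genes of nuclear RNA decay, which sets the level of many antisense RNAs, moved by small amounts. Of 19 tested genes of the RNA exosome and its cofactors, 13 rose and 4 fell (median 0.29), where 39.3% and 39.1% of all genes did so, and none changed 2-fold. The exosome core genes EXOSC1 (0.86 ± 0.069) and EXOSC4 (0.86 ± 0.084) had the highest values of the decay list. RBM7 (0.69 ± 0.069), an RNA-binding cofactor in the nucleoplasm, rose, as did the helicase gene MTREX (0.36 ± 0.056). ZFC3H1 (-0.61 ± 0.051) and PABPN1 (-0.45 ± 0.054), which bring polyadenylated nuclear RNA to the exosome, fell, as did the nuclease gene EXOSC10 (-0.46 ± 0.048). Of 28 genes of Integrator, cleavage and polyadenylation, the U1 particle and cap binding, 11 rose and 8 fell (median -0.0043). INTS3 (-1.99 ± 0.054) and PCF11 (-1.29 ± 0.057), a termination factor, had the lowest values and INTS12 (1.49 ± 0.092) the highest. Whether these changes bear on the antisense RNAs was not tested.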

How the data were processed

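RNA was sequenced from 6 libraries of 12Z cells, made from 1.5 µg of total RNA with a TruSeq RNA kit per the labels' protocols. The deposited tables hold, for 60419 genes, estimated counts per gene, not scaled between libraries, and log2(TPM + 1) made by the authors. The submitters' processing notes name STAR, RSEM 1.3.1 and GRCh38, with no annotation release. RSEM splits reads that match several genes, so overlapping and similar genes share counts by estimate.

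Estimated counts were rounded to whole numbers and filtered with edgeR's filterByExpr, which left 16395 genes. Myrrh was compared with DMSO by edgeR's quasi-likelihood F-test (edgeR 4.0.16, R 4.3.3, limma 3.58.1, TMM factors 0.933 to 1.05, robust, two-sided), with p-values adjusted by Benjamini-Hochberg across the 16395 genes, at 0.05. SE is the log2 fold change over the square root of F, and SDs are over 3 libraries. The SE of a difference within a pair is the square root of the summed squares of both SEs. It treats the genes of a pair as independent, though they share the same libraries and may share reads. TPM was recovered by undoing the log2. For single pairs, an exact permutation test over libraries used log2 ratios of CPM + 0.05. Positions are from GENCODE 29 by Ensembl identifier. The fit was tested on simulated data.

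The members and lists were chosen with earlier results of these data known. Members were named by rule: the 8 largest rises and 8 largest falls among called members without overlap, the 5 with the most TPM in DMSO, up to 6 pairs in opposite and 6 in the same direction, 5 members chosen by name and 3 on each side of the floor; others were named after their values were seen. Of the pairs so named, 1 in each direction is not reported here. Within groups, counts differed by 3.85 to 9.19 chi-square per degree of freedom, above sampling noise. Alternatives included DESeq2 1.42.0. Totals per library were 22454783 to 27588151; members had 86 counts or more over the DMSO libraries and 5 or more over the Myrrh libraries.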

Additional observations from a re-analysis of the deposited data

How the results depend on the processing

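Counts of members and pairs stayed within 1.5 times their value with DESeq2 size factors, library totals, the DESeq2 Wald test, no filter on low counts, limma on log2(TPM + 1) and the other DMSO floors. A filter of 5 CPM in 3 libraries tested 133 members, of which 101 fell and 16 rose, with 52 pairs in the same and 33 in opposite directions. With glmTreat against a log2 fold change of 0.5, 20 members rose, 55 partners rose and 85 fell, and 69 pairs were called in the same and 22 in opposite directions. Pairs without shared exon bases gave 15 and 18, and members with no exon base opposite any gene, a choice made after seeing the data, gave 29 lower and 5 higher; both use fewer genes. Leaving out 1 library at a time gave 213 to 223 members lower and 36 to 41 higher, 131 to 136 partners lower and 111 to 119 higher, and 119 to 127 pairs in the same and 70 to 79 in opposite directions. Library totals moved the median of all genes from -0.017 to -0.16, and that of the members to -0.99. OIP5-AS1, not called, changed sign with library totals (-0.11) and with the 5 CPM filter (-0.063). Replicate numbers are shared by the groups, but same-numbered libraries deviated together at -0.06 to 0.036 only, so they were not treated as pairs. With a replicate block, 225 members fell and 39 rose, 137 partners fell and 119 rose, and 128 pairs were in the same and 80 in opposite directions; no named gene's call changed. Among named members and partners, glmTreat ended 15 calls, among them RCC2-AS1, PAX8-AS1, PTOV1-AS1, MCM3AP-AS1 and NEPRO. Library totals and the 5 CPM filter ended 4 each, of KTN1, UBE2R2, PAX8 and MCM3AP, limma 4, and the DESeq2 Wald test 1. Leaving out 1 library ended calls of RCC2-AS1, PAX8 and MCM3AP, as given above, and leaving out DMSO replicate 2 that of PTOV1-AS1 (-0.77). Depth limits the folds of members that fell to a few counts.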

Other observations

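Of the members, 8 span a small RNA gene on their own strand in GENCODE 29. Among them, the hosts of SNORA13 and MIR3157, EPB41L4A-AS1 (1.16) and ENTPD1-AS1 (0.98), rose, and the other 6 fell. THBS3-AS1, which spans MIR92B, was at -0.88 and GABPB1-AS1, which spans MIR4712, at -1.98 (log2 fold changes, Myrrh over DMSO). The 75% that fell stand beside 68.9% of all members and 39.1% of all genes tested. The 25% that rose stand beside 12.1% and 39.3%. With so few genes, nothing particular to these hosts can be read from the split.

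AFAP1-AS1 had the widest spread within groups of any member. It had 11.9, 3.85 and 12.3 CPM in the Myrrh libraries, against 7.28, 5.55 and 2.13 CPM in the DMSO libraries, so the libraries of each group differed severalfold and the groups overlapped (0.92 ± 0.67, SE; adjusted p = 0.268, edgeR). Exons of AFAP1 cover 7.7% of its exon bases, and AFAP1 was not called (-0.066 ± 0.056).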
